A study of Homo sapiens with 14 samples.

Results

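Non-targeting control guides made up 1496 of the 134203 guides counted in genome-wide CRISPR screens of RKO and SW620 cells. They are the rows whose gene field reads Non-Targeting or NO-TARGET: 1000 of 77441 guides (1.29%) in the knockout tables and 496 of 56762 guides (0.874%) in the activation tables. No measured value was used to choose them, and all 1496 were found. The files name guides by number and hold no guide sequences, so guides are given here by the identifiers in the files.

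A non-targeting guide carries a spacer designed to match no site in the human genome. It enters cells, is copied with their DNA and is sequenced like any other guide, but it should direct Cas9 or dCas9-VP64 to no locus, so its count follows how the cells that carry it multiply. Such guides are commonly used to set the null spread of guide changes in a screen and, in some analyses, to scale libraries against each other. Guides to olfactory receptor genes, which colorectal cells are not expected to use, are a second kind of control: they do have a genomic site, but the loss of that gene should change little.

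RKO and SW620 are established human colorectal cancer lines. Each line expressed either Cas9 with the Brunello knockout library, in which a guide directs a cut in its gene, or dCas9-VP64 with the Calabrese activation library, in which a cut-dead Cas9 fused to a transcriptional activator is brought to a promoter. Each of the 4 screens was sampled at day 0, at day 20 without drug and at day 20 with oxaliplatin, a platinum drug that crosslinks DNA, at 1.9 µM for RKO and at 1 of 2 doses, 0.38 or 0.5 µM, for SW620. Cells had been transduced at a multiplicity of infection chosen so that most infected cells carry a single guide, and were selected for both the Cas9 protein and the library.

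There was 1 library per condition, 14 in all, and no replicate. Every comparison below is therefore between 2 libraries, carries no p-value and cannot separate a condition from its library. Ranges after a median or a robust SD are 95% order-statistic intervals over guides. They describe how sharply the guides of these libraries place the value and hold no spread between cultures. Wilson 95% intervals are given for shares of guides.

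Library totals ran from 3647823 counts (SW620 activation, untreated day 20) to 69526489 counts (SW620 knockout, day 0). The RKO activation library under oxaliplatin stood apart: 8100 of its 56266 targeting guides were at 0 and 1 targeting guide held 15.6% of all targeting counts there. As a check that the untreated knockout libraries behaved as labelled, guides to cytosolic ribosomal proteins, which growing cells need, had a median log2 fold from day 0 to day 20 of -2.98 in RKO and -0.76 in SW620.

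Before any treatment, non-targeting guides already stood well above the rest of the knockout library and close to it in the activation library. In RKO knockout at day 0 the median non-targeting guide had 810 counts, the median targeting guide 348 and the median olfactory receptor guide 381. In SW620 knockout the same medians were 1600, 766 and 817.5 counts. Non-targeting guides thus lay 2.33-fold (RKO) and 2.09-fold (SW620) above targeting guides at day 0, and they took 2.62% and 2.39% of the counts with 1.29% of the guides. The excess was not shared by the olfactory receptor guides, over which non-targeting guides stood 2.13-fold and 1.96-fold higher.

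In the activation screens the day-0 medians were 1042 counts for non-targeting and 986 for targeting guides in RKO, and 405.5 and 381 counts in SW620, a ratio of 1.06 in both lines. Non-targeting guides took 0.917% and 0.924% of the activation counts, against 0.874% of the guides. The knockout excess was therefore not seen in the activation library of either line. How many copies of each guide went into the cells is not known from the day-0 tables, so the design of the library and the first days of growth cannot be told apart.

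Non-targeting guides also held many of the top places in the knockout libraries. Of the 774 most abundant guides (the top 1%) in RKO knockout, 160 were non-targeting at day 0, 291 in the untreated day-20 library and 24 under oxaliplatin. In SW620 knockout these counts were 116 at day 0, 182 untreated, 56 at 0.38 µM and 30 at 0.5 µM. The non-targeting share of the top 1% was thus higher after 20 days without drug and lower under drug than at day 0 in both lines. Under drug it was 3.10% in RKO and 7.24% and 3.88% in SW620, still above the 1.29% of guides that are non-targeting. Guide 76530, the non-targeting guide with the highest day-0 count in both lines, had 1990, 2823 and 2462 counts in RKO (day 0, untreated, oxaliplatin) and 4163, 3717, 2591 and 1941 counts in SW620 (day 0, untreated, 0.38 µM, 0.5 µM). It held rank 2 of all guides at day 0 in each line and rank 982 in the treated RKO library. In the activation screens non-targeting guides held between 1 and 6 of the 568 top places in every library. That is 0.176% to 1.06% of these places, near or below the 0.874% of guides that are non-targeting.

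Without drug, non-targeting guides stood higher relative to targeting guides at day 20 than at day 0 in both knockout screens, by more in RKO than in SW620. Folds are log2 ratios of counts scaled by the median ratio over all guides, with 5 added to each, over guides with a mean scaled count of at least 20. In RKO knockout 990 of 1000 non-targeting guides passed this filter, and their median log2 fold was 0.51 (0.49 to 0.53), against 0.07 for targeting guides and 0.18 for olfactory receptor guides. In SW620 knockout 994 passed, with medians of 0.25 (0.24 to 0.27), 0.03 and 0.14 in the same order. With this scaling non-targeting guides were above 0 in 941 of 990 cases in RKO and 898 of 994 in SW620, against 55.3% and 53.4% of targeting guides.

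The excess over targeting guides was 0.45 log2 units in RKO (1.36-fold) and 0.23 in SW620 (1.17-fold). Over olfactory receptor guides it was 0.34 and 0.12 log2 units. Since non-targeting guides start higher, the same differences were taken within the range of day-0 counts that holds the central non-targeting guides: they were 0.40 and 0.23 over targeting guides and 0.31 and 0.14 over olfactory receptor guides. The excess was thus of like size at matched starting counts. Scaled on all guides, the non-targeting median was above 0 in each of the 4 bins of non-targeting guides by control count (quartiles), with medians of 0.50 to 0.52 in RKO and 0.22 to 0.34 in SW620. No targeting median is given per bin, and the place of 0 depends on the scaling. Over all bins the non-targeting median was 0.45 and 0.23 by total counts, and 0.01 and -0.01 scaled on non-targeting guides.

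The spread among non-targeting guides was narrow in these untreated comparisons. Their robust SD (the scaled median absolute deviation) was 0.24 (0.22 to 0.26) in RKO knockout and 0.19 (0.18 to 0.21) in SW620 knockout, against 0.48 and 0.33 for targeting guides. At matched day-0 counts targeting guides had 0.37 and 0.28. Counting error alone would give a typical non-targeting guide an SD of 0.07 and 0.05, so the observed spread was 3.65 and 3.53 times counting error. Among targeting guides of RKO knockout the 5th percentile of the folds was -2.83, while among non-targeting guides it was 0.00.

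Few single non-targeting guides lay far from 0 without drug. In RKO knockout 19 of 990 were over 2-fold higher and 2 over 2-fold lower, where 0.924% and 12.0% of all guides tested were. Scaled on non-targeting guides alone, the RKO counts were 1 and 3, where 0.0404% and 19.4% of all guides were. In SW620 knockout 4 of 994 were over 2-fold higher, where 0.214% of all guides were, and 0 were over 2-fold lower (at most 0.385% by the Wilson interval), where 2.54% of all guides were. Guide 76996 was the lowest in RKO, with 520 counts at day 0, 67 untreated and 15 under oxaliplatin, a log2 fold of -2.90 without drug. Its counts in both day-20 libraries were far below those of day 0. Guide 76518 was the lowest in SW620, with 2005, 987, 2052 and 654 counts, and its untreated log2 fold was only -0.44. The highest folds belonged to thinly counted guides: guide 76932 in RKO (11, 63 and 2 counts, log2 fold 1.93) and guide 76692 in SW620 (32, 89, 114 and 10 counts, log2 fold 1.79).

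In the activation screens the non-targeting median lay close to 0 without drug, and the olfactory receptor median lay slightly above it. The non-targeting median log2 fold was 0.10 (0.06 to 0.14) in RKO and 0.06 (0.02 to 0.09) in SW620, while targeting guides had 0.02 and 0.01 and olfactory receptor guides 0.16 and 0.08. Non-targeting guides thus stood 0.08 and 0.05 above targeting guides but -0.06 and -0.03 relative to olfactory receptor guides, so the sign of their drift depended on the reference. Their robust SD was 0.37 against 0.42 for targeting guides in RKO and 0.31 against 0.35 in SW620.

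In RKO activation without drug 1 non-targeting guide was over 2-fold higher and 5 over 2-fold lower, where 0.431% and 3.36% of all guides were. In SW620 activation these counts were 1 and 3, where 0.127% and 1.87% of all guides were. Scaled on non-targeting guides alone they were 0 and 4, where 0.0831% and 2.19% were. Guide 32037 was the highest in RKO, with 929 counts at day 0, 1073 untreated and 119 under oxaliplatin (log2 fold 1.04). Guide 32008 was the lowest, with 804, 174 and 183 counts (log2 fold -1.31). In SW620 the highest was gRNA_11014, with 333, 113, 447 and 308 counts at day 0, untreated, 0.38 µM and 0.5 µM (log2 fold 1.03), and the lowest was gRNA_27778, with 185, 11, 335 and 43 counts (log2 fold -1.33). The untreated SW620 library had a non-targeting median of only 69 counts, and its spread was 1.68 times counting error, the closest to counting error of the 12 comparisons.

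Under oxaliplatin the non-targeting median in the knockout screens stood above the targeting median at each dose. In RKO at 1.9 µM the median log2 fold over untreated day 20 was 0.25 (0.18 to 0.32) for non-targeting, 0.03 for targeting and 0.00 for olfactory receptor guides. In SW620 the non-targeting median was 0.29 (0.24 to 0.34) at 0.38 µM and 0.99 (0.82 to 1.13) at 0.5 µM, against 0.06 and -0.05 for targeting and 0.08 and -0.08 for olfactory receptor guides. The SW620 doses share 1 untreated library, and in every screen that library is also the one set against day 0 above. Set directly against each other, 0.5 µM over 0.38 µM gave a non-targeting median of 0.68 (0.56 to 0.82) and a targeting median of 0.03.

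With olfactory receptor guides as reference the excess was 0.25 in RKO, 0.21 at 0.38 µM and 1.07 at 0.5 µM, close to that over targeting guides, but it was smaller at matched counts. At matched untreated counts the non-targeting excess over targeting guides was 0.18 in place of 0.22 log2 units in RKO, 0.15 in place of 0.22 in SW620 at 0.38 µM, and 0.30 in place of 1.04 at 0.5 µM. With day 0 as control it was 0.82, 0.45 and 1.30 in the same order. The sign of the non-targeting median also depended on scaling: by total counts its log2 fold over untreated was -1.06 in RKO, -0.14 at 0.38 µM and -1.09 at 0.5 µM, while the targeting median was lower still at -1.27, -0.36 and -2.09.

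Treated knockout libraries spread the non-targeting guides widely. Their robust SD was 0.95 (0.89 to 1.00) in RKO, 0.68 (0.62 to 0.73) in SW620 at 0.38 µM and 1.87 (1.72 to 2.03) at 0.5 µM, which was 12.9, 12.4 and 28.4 times counting error. Targeting guides spread more, with 1.28, 1.08 and 3.00. At matched untreated counts the gap was smaller, with 0.94, 0.69 and 1.88 for non-targeting and 1.05, 0.82 and 2.18 for targeting guides. Guides with more counts in the untreated library spread less: from the lowest to the highest quartile of non-targeting guides the robust SD went from 1.04 to 0.84 in RKO, from 0.81 to 0.59 at 0.38 µM and from 2.56 to 1.55 at 0.5 µM. Even the best-counted quartile was far wider than in the untreated comparisons, where it reached 0.17 and 0.14.

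In RKO knockout under oxaliplatin 216 of 990 non-targeting guides were over 2-fold higher than untreated (21.8%, interval 19.4% to 24.5%) and 77 over 2-fold lower (7.78%), where 23.6% and 19.9% of all guides were. In SW620 at 0.38 µM 143 of 991 were higher and 51 lower, where 17.1% and 19.4% of all guides were. At 0.5 µM 491 of 992 were higher and 174 lower, where 36.8% and 39.5% of all guides were. Between the doses 431 of 991 were over 2-fold higher at 0.5 µM and 221 over 2-fold lower, where 37.1% and 37.2% of all guides were. The share lower was below that of all guides in each of these comparisons, while the share higher was below it at 1.9 and 0.38 µM and above it where 0.5 µM was compared.

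This balance of higher and lower holds for scaling on all guides. By total counts 29 of 990 non-targeting guides were over 2-fold higher and 523 lower in RKO, where 6.53% and 58.3% of all guides were. In SW620 the counts were 60 and 118 of 994 at 0.38 µM, where 8.71% and 29.0% of all guides were, and 86 and 523 of 994 at 0.5 µM, where 10.2% and 64.2% were. Between the doses they were 135 and 485 of 991, where 16.7% and 58.2% of all guides were. More non-targeting guides were then lower than higher in all 4 comparisons, with shares below those of all guides in both directions. Without the top 1% of guides the counts were 87 and 231 in RKO, where 13.3% and 36.2% of all guides were. At 0.38 µM they were 72 and 96, where 10.2% and 26.5% were. At 0.5 µM they were 161 and 422, where 15.3% and 57.4% were. Between the doses they were 189 and 411, where 21.1% and 52.7% were. The non-targeting share higher at 0.5 µM over untreated, 16.2%, was then above that of all guides. Scaled on non-targeting guides they were 152 and 120 in RKO, where 18.8% and 25.8% of all guides were. At 0.38 µM they were 89 and 82, where 11.5% and 24.7% were. At 0.5 µM they were 273 and 311, where 23.1% and 49.8% were. Between the doses they were 283 and 319, where 27.5% and 45.8% were. The non-targeting shares higher, 27.5% at 0.5 µM and 28.6% between the doses, were then above those of all guides.

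Single non-targeting guides reached very high counts in treated knockout libraries. In RKO the highest fold belonged to guide 76809, with 825 counts at day 0, 1205 untreated and 15345 under oxaliplatin (log2 fold 5.01). It was followed by guide 77284 with 814, 1270 and 13400 counts (4.74) and guide 76879 with 670, 706 and 7107 counts (4.67). Without drug these 3 guides had log2 folds of 0.48, 0.57 and 0.01. They were picked for their folds under drug, so their untreated values are a description only. The lowest folds were those of guide 76932 (11, 63 and 2 counts, -2.55), guide 77192 (535, 827 and 66 counts, -2.25) and guide 77015 (572, 1006 and 83 counts, -2.21).

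In SW620 at 0.5 µM the extremes were larger. Guide 76816 had 2463 counts at day 0, 1813 untreated, 7814 at 0.38 µM and 107142 at 0.5 µM, a log2 fold of 7.57, and alone held 6.08% of all non-targeting counts of that library. Guide 77168 had 896, 772, 1850 and 35503 counts (7.20 at 0.5 µM), and guide 76567 had 1942, 1736, 2546 and 74072 counts (7.10). All 3 were less raised at 0.38 µM, with log2 folds of 2.17, 1.32 and 0.62. They were picked for their folds at 0.5 µM, so their values at 0.38 µM are a description only. The lowest at 0.5 µM were guide 76708 (1297, 1232, 1569 and 23 counts, -3.95), guide 77028 (159, 283, 288 and 4 counts, -3.92) and guide 77372 (815, 817, 303 and 15 counts, -3.92).

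At 0.38 µM the highest guide was 76553, with 1419, 1376, 16473 and 1533 counts, a log2 fold of 3.64 at 0.38 µM and 1.84 at 0.5 µM. Guide 77209 had 1429, 1031, 9017 and 16878 counts and was high at both doses (3.19 and 5.71). Guide 77263 had 2634, 2126, 15917 and 505 counts, so that it was high at 0.38 µM (2.97) and not at 0.5 µM (-0.39). The lowest at 0.38 µM were guide 76983 (819, 639, 23 and 858 counts, -4.41), guide 77312 (1458, 1057, 62 and 848 counts, -3.90) and guide 76923 (1057, 900, 55 and 369 counts, -3.83). All 3 had a fold above 0 at the higher dose, with 2.10, 1.36 and 0.40. These guides were picked for their folds at 0.38 µM, so their values at 0.5 µM are a description only.

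The guides of SLC43A1, an amino acid transporter gene, lay beyond this null range in the treated knockout libraries. The gene was chosen with earlier results of these data known, so its place is a description only. Its 4 guides had log2 folds of 12.57 to 13.13 in RKO, 7.48 to 8.54 at 0.38 µM and 10.61 to 11.57 at 0.5 µM, and 0 of the 990, 991 and 992 non-targeting guides reached the lowest of them. The non-targeting maximum was passed by 390 (0.531%), 169 (0.223%) and 95 (0.125%) targeting guides in the same order. In the activation screens the 3 SLC43A1 guides were low, with log2 folds of -6.56 to -3.89 in RKO. In SW620 they were -5.48 to -3.46 at 0.38 µM and -4.61 to -3.05 at 0.5 µM. Below the highest of these 3 guides lay 0, 0 and 5 non-targeting guides in that order. The non-targeting minimum was itself undercut by many targeting guides in RKO, 12658 of 55927 (22.6%). In SW620 these were 798 (1.43%) at 0.38 µM and 1099 (1.96%) at 0.5 µM.

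In RKO activation under oxaliplatin nearly all non-targeting guides kept a count while targeting guides scattered. The median non-targeting guide had 1042 counts at day 0, 618 untreated and 200 under oxaliplatin, and the median targeting guide 986, 547 and 21. The olfactory receptor median was 863, 531 and 21 counts, so those guides sat with the targeting guides and not with the non-targeting ones. The ratio of the non-targeting to the targeting median was 1.06 at day 0, 1.13 untreated and 9.52 under oxaliplatin, a within-library ratio that no scaling of libraries changes. Of 496 non-targeting guides 1 was at 0 and 2 were below 10 counts in the treated library, against 23053 of 56266 targeting guides (41.0%) below 10 counts.

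As folds over untreated, the non-targeting median was 2.25 (2.15 to 2.36) and the targeting median -0.81, a difference of 3.06 log2 units (8.35-fold). At matched untreated counts the difference was 2.94, and over olfactory receptor guides it was 2.98. Of 496 non-targeting guides 463 were over 2-fold higher (93.3%, interval 90.8% to 95.2%) and 2 over 2-fold lower, where 33.7% and 47.9% of all guides were. The direction for non-targeting guides depends on the scaling: by total counts their median was -1.32 and that of targeting guides -4.16, and by total counts without the top 1% of guides in each library, a scaling chosen after the data were seen, -0.29 and -3.24. By total counts 39 non-targeting guides were over 2-fold higher and 316 lower, where 7.07% and 80.4% of all guides were. Without the top 1% these counts were 86 and 92, where 12.7% and 71.1% of all guides were. Scaled on non-targeting guides they were 103 and 49, where 14.5% and 68.5% were. The difference between the guide classes was 2.84 by total counts, 2.95 without the top 1% and 3.07 by the authors' tables.

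The non-targeting guides of this library were also the tighter group. Their robust SD was 0.90 (0.82 to 1.00), against 3.83 for targeting and 3.75 for olfactory receptor guides, a ratio of 0.235 to targeting guides, while in the other 11 comparisons this ratio lay between 0.491 and 0.895. At matched untreated counts the values were 0.88 and 3.81. The 5th percentile of non-targeting folds was 0.88, and 65.6% of targeting guides lay below it, while 4.84% lay above the non-targeting 95th percentile of 5.21. The median was higher where the untreated count was lower, from 2.54 in the lowest quartile of guides to 1.90 in the highest. The quartiles and the fold both use the untreated count, so the 2 quantities are not independent. Guides at 0 and the counts held by single guides set this library apart from the others, and their part in the result was not tested. Its total of 28073257 counts lay within the range of the other libraries.

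A small tail of non-targeting guides in that library carried a large share of the class's counts. The top 1% of non-targeting guides held 38.9% of their counts, against 2.05% in the untreated library. Guide 32009 had 940 counts at day 0, 335 untreated and 42265 under oxaliplatin (log2 fold 10.77), which was rank 30 of all guides and was 13.2% of all non-targeting counts. Guide 31846 followed with 918, 392 and 36291 counts (10.33) and guide 31912 with 1148, 741 and 25905 counts (8.94). The median of the class does not rest on these 3 of 496 guides. Scaled on all guides, 494 of 496 had a fold above 0, a count that depends on the scaling as given above. At the low end guide 32040, with 93 and 103 counts before, was at 0 under oxaliplatin, which is at least 2.41-fold lower by the floor of 3 counts. Guide 31799 had 412, 210 and 7 counts (-1.003) and guide 31994 had 1232, 1041 and 88 counts (0.27).

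SW620 activation showed no such separation. Non-targeting medians were 384 counts at 0.38 µM and 155 at 0.5 µM, targeting medians 346 and 137, and the ratios were 1.11 and 1.13, against 1.11 untreated. The median log2 fold over untreated was -0.02 (-0.12 to 0.05) at 0.38 µM and 0.01 (-0.08 to 0.12) at 0.5 µM, against 0.01 and 0.00 for targeting guides, so both intervals include 0. Doses differ between the lines, and no SW620 library was made at 1.9 µM among those used here.

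At 0.38 µM 67 of 495 non-targeting guides of SW620 activation were over 2-fold higher and 74 lower, where 18.0% and 20.3% of all guides were. At 0.5 µM 95 were higher and 80 lower, where 21.7% and 24.1% of all guides were. Between the doses 109 of 494 were higher and 104 lower, where 25.9% and 26.1% of all guides were. The robust SD was 0.92 (0.85 to 1.04) and 1.04 (0.95 to 1.15) over untreated, against 1.14 and 1.35 for targeting guides, and 4.90 and 5.02 times counting error. Non-targeting guides were thus spread less than targeting guides. The balance of higher and lower again depended on scaling: by total counts 36 were higher and 126 lower at 0.38 µM, and 42 and 150 at 0.5 µM, where 10.9% and 28.6%, and 11.6% and 36.1%, of all guides were. Without the top 1% of guides these counts were 42 and 116 at 0.38 µM, where 12.1% and 26.8% of all guides were. At 0.5 µM they were 56 and 132, where 13.5% and 33.3% were.

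The highest non-targeting folds of SW620 activation were below those of the other treated libraries. At 0.38 µM the highest was gRNA_31231 (188, 29, 1203 and 112 counts at day 0, untreated, 0.38 µM and 0.5 µM, log2 fold 2.81), ahead of gRNA_45319 (320, 63, 2355 and 112 counts, 2.70) and gRNA_632 (369, 54, 1870 and 160 counts, 2.59). At 0.5 µM the highest was gRNA_10485 (432, 42, 133 and 701 counts, 2.84), ahead of gRNA_11967 (350, 54, 202 and 888 counts, 2.83) and gRNA_46829 (510, 94, 159 and 1405 counts, 2.71). Each of these 6 guides was high at 1 dose and not over 2-fold higher at the other. Each was picked for its fold at the first of these doses, so the other value is a description only. The lowest were gRNA_2920 at 0.38 µM (499, 90, 42 and 41 counts, -3.32) and gRNA_43033 at 0.5 µM (347, 58, 386 and 8 counts, -3.50). The next lowest were gRNA_51067 (-2.77) and gRNA_29018 (-2.49) at 0.38 µM, and gRNA_10539 (-3.36) and gRNA_20972 (-3.27) at 0.5 µM.

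Between the SW620 activation doses the fold followed the starting count. Non-targeting guides in the lowest quartile by 0.38 µM count had a median log2 fold of 1.08 at 0.5 over 0.38 µM, and those in the highest quartile -1.02. In the knockout screen the same quartiles gave 1.20 and 0.17. Both axes use the 0.38 µM count, so the 2 quantities are not independent.

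A few knockout non-targeting guides were nearly absent from the start, and they were the same ones in both lines. Guides below 10% of the non-targeting day-0 median numbered 12 in RKO and 13 in SW620, and 12 were shared (100% of the RKO and 92.3% of the SW620 list). They were 1.2% and 1.3% of non-targeting guides, and 0.833% and 0.737% of targeting guides lay as far below the targeting median. In RKO they had at most 71 counts at day 0, and the next guide had 106. Guides 76789, 76812, 76887, 76960 and 77324 were at 0 in all 4 SW620 knockout libraries, and in RKO they had 1, 6, 7, 4 and 0 counts at day 0. In the activation screens 1 guide of 496 in RKO, guide 32040, and none in SW620 lay that low, while 0.297% and 0.259% of targeting guides did against their own median. The overlap of low targeting guides between the knockout lines is not given here. Their day-0 levels correlated between lines nearly as closely (Pearson r 0.94, against 0.96 for non-targeting guides), and 143 targeting guides were at 0 in all 4 SW620 knockout libraries.

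Guides at 0 were otherwise rare among non-targeting guides. They numbered 1, 5 and 6 of 1000 in RKO knockout (day 0, untreated, oxaliplatin) and 5, 5, 9 and 7 in SW620 knockout (day 0, untreated, 0.38 µM, 0.5 µM). In the activation screens they numbered 0, 0 and 1 of 496 in RKO and 0, 0, 1 and 1 in SW620, where the Wilson interval of 0 of 496 reaches 0.769%. Targeting guides at 0 in at least 1 library were 2.23% in RKO knockout, 1.70% in SW620 knockout, 14.4% in RKO activation and 0.963% in SW620 activation, against 0.7%, 1%, 0.202% and 0.202% of non-targeting guides. By single library the order was not the same throughout SW620 knockout. There 0.5% of non-targeting guides were at 0 both at day 0 and untreated, against 0.213% and 0.395% of targeting guides. At 0.38 and 0.5 µM the non-targeting shares were 0.9% and 0.7%, against 1.12% and 1.15%. In untreated RKO knockout 1425 targeting guides (1.86%) were at 0, against 5 non-targeting ones (0.5%), all 5 of which had fewer than 10 counts at day 0.

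The knockout tables share guide identifiers, so each non-targeting guide can be followed in both lines. Day-0 levels were alike, with a Pearson r of 0.96 and a Spearman rho of 0.95 over 1000 guides on log2 counts. These points share the library design. The log2 folds were not alike: without drug r was -0.19 and rho -0.18 over 990 non-targeting guides, against 0.44 and 0.24 over 75742 targeting and 0.21 and 0.09 over 1485 olfactory receptor guides. Under oxaliplatin r between RKO and SW620 was -0.0061 for 0.38 µM and 0.0034 for 0.5 µM over 989 non-targeting guides, against 0.016 and 0.031 for targeting and 0.012 and 0.087 for olfactory receptor guides. The fold of a guide under drug in 1 line therefore said little about its fold in the other, in all 3 classes of guides.

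Guides over 4-fold higher under oxaliplatin in both lines were counted among non-targeting guides only, with no count over targeting guides beside them. In RKO 48 of 989 guides passed 4-fold, in SW620 17 at 0.38 µM and 271 at 0.5 µM. Of these, 2 were shared with 0.38 µM (4.17% of the RKO and 11.8% of the SW620 list) and 13 with 0.5 µM (27.1% and 4.80%), where 1.72% of the non-targeting guides passed at 0.38 µM and 27.4% at 0.5 µM. The 27.1% of the RKO list was thus near the share of all 989 guides that passed at 0.5 µM. The 4.17% at 0.38 µM rests on 2 guides. The shared guides are named below as a description only. The pair shared with 0.38 µM were guide 76553, with 785, 1151 and 3156 counts in RKO (2.80), and guide 77396, with 1139, 1595 and 4799 counts in RKO (2.93) and 2459, 1933, 9768 and 2201 counts in SW620 (2.40 at 0.38 µM). Of the 13 shared with 0.5 µM, guide 76589 had the highest RKO fold (1084, 1504 and 10048 counts, 4.08, against 2.33 in SW620) and guide 76901 the highest SW620 fold (1090, 1023, 1284 and 5818 counts, 4.19, against 2.04 in RKO).

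The choice of guides used to scale the libraries sets where the non-targeting guides sit. The constants that turn the deposited counts into the deposited normalized tables equalled, to within 0.00665%, the median of ratios over all guides, with 1 added to each count before the geometric mean. They were not those of the non-targeting guides alone, from which they differed by a factor of 0.480 to 4.23. In the authors' normalized tables the non-targeting median was 244 at day 0, 268 untreated and 2131 under oxaliplatin in RKO activation, while the targeting median was 230.5, 237 and 224. In RKO knockout the normalized non-targeting medians were 616, 889 and 1038 in the same order, and in SW620 knockout they were 860, 1038, 1307 and 2098.

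Scaled on the non-targeting guides instead, their own median log2 fold was between -0.04 and 0.06 in all 12 comparisons by construction, and the targeting median moved. It became -0.43 and -0.24 in the untreated knockout comparisons, -0.21, -0.19 and -1.01 under 1.9, 0.38 and 0.5 µM in knockout, and -2.98 in RKO activation under oxaliplatin. In SW620 activation it stayed between -0.04 and 0.04. How far the targeting median moved follows by construction from the difference between non-targeting and targeting medians, so it is not a separate result.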

How the data were processed

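Guide cassettes amplified from genomic DNA were counted in 14 libraries of 4 screens, 1 library per condition. The authors deposited raw counts per guide for each screen and a second table of normalized values, a signal that equals each count column times 1 constant. Cutadapt 4.0 and MAGeCK 0.5.7 are named per the submitters' processing notes; their settings are not given in the sources used here. All columns were matched to samples by name, and 0 were left over.

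Libraries were brought to one scale by median-ratio size factors computed over all guides, and log2 folds were taken with a pseudocount of 5 on guides with a mean scaled count of at least 20 in the libraries compared. Spread is the robust SD, set against the SD that Poisson counting alone gives. The matched reference keeps guides between the 5th and 95th percentile of non-targeting control counts. The median shifts and robust SDs were tested on simulated data, and the intervals were not. Intervals and floors (3 counts) cover counting error or guide spread only, since amplified reads carry no molecular identifiers. With 1 library per condition no test was possible.

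Named are, per oxaliplatin comparison with untreated cells, the 3 guides with the highest and the 3 with the lowest fold, per untreated comparison 1 of each, the guide with the highest count per library, and guides over 4-fold higher in both lines. The members, lists and rules were chosen with earlier results of these data known. Python 3.11.15, numpy 2.4.6, pandas 2.3.3 and scipy 1.17.1 were used.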

Additional observations from a re-analysis of the deposited data

Results flagged for a closer look

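The shift of non-targeting against targeting guides under oxaliplatin differed in size between the activation screens of the lines, a difference that was not tested and that rests on 1 library per dose. The non-targeting median minus the targeting median was 3.06 log2 units in RKO at 1.9 µM. In SW620 it was -0.032 at 0.38 µM and 0.015 at 0.5 µM, and the intervals of both SW620 non-targeting medians include 0, so no difference in direction is shown. Doses differ between the lines. Groups of 1 library cannot be examined for a library far from its group.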

How the results depend on the processing

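No paired analysis was possible because each condition has 1 library, and for the same reason no replicate was left out in turn. With a pseudocount of 1 or without the filter on low counts, the medians and robust SDs of all 12 comparisons kept within their intervals, and the authors' factors kept all 12 shares of guides past 2-fold within 1.5 times. Below, a dose stands for that dose over untreated cells, and untreated for day 20 over day 0. The cause of the shifts was not tested.

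Of the non-targeting minus targeting medians, a pseudocount of 20 gave 2.94 in RKO activation at 1.9 µM. A control count of at least 50 gave 0.79 in SW620 knockout for 0.5 over 0.38 µM. With day 0 as control the knockout values were 0.82 at 1.9 µM, 0.45 at 0.38 µM and 1.30 at 0.5 µM. With olfactory receptor guides as reference the untreated knockout values were 0.34 in RKO and 0.12 in SW620, and the untreated activation values changed sign to -0.058 and -0.025. With the matched reference, chosen after the data were seen, they were 0.40 in untreated RKO knockout, 0.15 at 0.38 µM, 0.30 at 0.5 µM and 0.83 for 0.5 over 0.38 µM in SW620 knockout, and 2.94 in RKO activation at 1.9 µM.

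Against olfactory receptor guides, day 0 as control gave 0.64, 0.32 and 1.23 in knockout at 1.9, 0.38 and 0.5 µM. Matched counts gave 0.31 and 0.14 in untreated RKO and SW620 knockout, 0.16, 0.088 and 0.40 at those doses, and 0.89 in knockout and 0.16 in activation for 0.5 over 0.38 µM. A control count of at least 50 gave 0.78 and 0.16 for that last pair.

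The standard deviation in place of the robust SD was 0.30 and 0.21 in untreated RKO and SW620 knockout, 0.80 in SW620 knockout at 0.38 µM, 1.42 in RKO activation at 1.9 µM and 0.33 in untreated SW620 activation. With day 0 as control the robust SD of RKO knockout at 1.9 µM was 0.88.

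The share of guides past 2-fold in either direction became 1.31% in untreated RKO knockout, 55.8% in RKO knockout at 1.9 µM and 2.02% in untreated RKO activation by total counts. Scaled on non-targeting guides it was 0.404% and 0.201% in untreated RKO and SW620 knockout and 30.6% in RKO activation at 1.9 µM. By total counts without the top 1% of guides, chosen after the data were seen, it was 1.41% in untreated RKO knockout and 35.9% in RKO activation at 1.9 µM. Past 4-fold it was 0.101% and 0% in untreated RKO and SW620 knockout, 0% in both untreated activation screens, 5.35%, 2.42% and 35.8% in knockout at 1.9, 0.38 and 0.5 µM, 35.5% for 0.5 over 0.38 µM, and 4.44%, 6.26% and 14.6% in SW620 activation at 0.38 µM, 0.5 µM and between them. Shares of all guides past 4-fold are not given here, so these values do not show whether non-targeting guides stood above or below the rest. Of 73 folds of single guides, 52 moved beyond counting error by total counts with the same sign, 20 did not, and 1 changed sign, that of guide 31994 in RKO activation (-3.28).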
